A study of Mus musculus with 10 samples.

Results

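Serpina3n, the kininogens Kng1 and Kng2, Serpina3g, Lcn2, Saa3 and Hp are 7 of the 50600 genes measured during reprogramming of mouse embryonic fibroblasts (MEFs) with or without FoxO6. They were selected by name with the measured differences between the arms over the time course known, so their own differences are descriptions and carry no test. In cells that received FoxO6, Serpina3n was present in all 5 libraries and reached its highest level on day 1. In the same cells Kng1 was highest on day 3 and Kng2 on days 3 and 5, and Saa3 was lower than in the control on days 5 and 7. Lcn2 had no read in any of the 10 libraries, and Hp and Serpina3g had too few reads to follow.

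Serpins are inhibitors of serine proteases, and Serpina3n is a mouse counterpart of human alpha-1-antichymotrypsin. Kininogens are secreted proteins of the cystatin family that inhibit cysteine proteases and are cut by kallikreins to release bradykinin, a peptide that acts on B1 and B2 receptors. Acute phase proteins are made mainly by the liver in inflammation, where cytokines of the interleukin 6 family act through the receptor chain gp130 and the factor STAT3, and interleukin 1 and tumour necrosis factor act through NF-kB and C/EBP factors. Lcn2 binds bacterial iron carriers, Saa3 belongs to the serum amyloid A family and Hp, haptoglobin, binds free haemoglobin.

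The MEFs came from E13.5 embryos of the strain CBA/CaJ X C57BL/6J. Both arms received retroviruses for Oct4, Klf4 and Sox2 (OKS) and were kept in iCD1 medium, a medium for reprogramming; the control arm, OKS+DR, also received DsRed, a red fluorescent protein, and the other arm, OKS+FoxO6, also received FoxO6, a forkhead transcription factor. Each arm gave 1 library on each of days 0, 1, 3, 5 and 7, so no single day has a replicate check, and nothing in the labels says that the days of an arm came from separate cultures. The comparison asks which genes differ along the way when FoxO6 is added. Expected counts (RSEM estimates of the reads of a gene) summed to between 1208379 and 2225750 per library. Foxo6 itself had between 0.61 and 2.29 TPM (RSEM's abundance of transcripts, scaled to the same total in each library and corrected for length) in OKS+DR and between 762 and 1356 TPM in OKS+FoxO6, day 0 included. In these bulk samples, fewer cells of a type and less RNA per cell cannot be told apart. The 10 fibroblast markers were all detected, with a summed level of 2330 to 7638 TPM in OKS+DR and 2587 to 6532 TPM in OKS+FoxO6.

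The windows around the RefSeq starts (250 bases before and 50 after, GRCm38.p6) are shown for Serpina3n, Serpina3g of the same gene cluster, Kng2 and Saa3. These members have the clearest values or share a stretch of sequence. Of the 7 members, 5 had an entry. Capitals mark matches to 6 motifs searched on both strands: STAT (TTCNNNGAA), C/EBP (TTGCNNAA), NF-kB (GGANTTTCC), FoxO (GTAAACA), an interferon response element core (GAAANNGAA) and the TATA box (TATAAA). The windows lie on chr12:104406458-104406757 (plus strand), chr12:104235897-104236196 (plus strand), chr16:23029052-23029351 (minus strand) and chr7:46715627-46715926 (minus strand).
Serpina3n: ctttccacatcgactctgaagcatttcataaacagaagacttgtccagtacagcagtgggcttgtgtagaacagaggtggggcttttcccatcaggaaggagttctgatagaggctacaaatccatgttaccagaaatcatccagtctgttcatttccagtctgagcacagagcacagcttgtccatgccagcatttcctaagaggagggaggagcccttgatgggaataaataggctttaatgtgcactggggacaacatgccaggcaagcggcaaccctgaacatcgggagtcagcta
Serpina3g: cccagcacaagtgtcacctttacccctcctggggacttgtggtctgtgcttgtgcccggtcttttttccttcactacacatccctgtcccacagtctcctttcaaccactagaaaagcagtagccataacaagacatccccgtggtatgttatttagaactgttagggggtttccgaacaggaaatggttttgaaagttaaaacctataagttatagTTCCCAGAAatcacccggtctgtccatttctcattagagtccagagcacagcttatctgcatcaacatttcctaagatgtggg
Kng2: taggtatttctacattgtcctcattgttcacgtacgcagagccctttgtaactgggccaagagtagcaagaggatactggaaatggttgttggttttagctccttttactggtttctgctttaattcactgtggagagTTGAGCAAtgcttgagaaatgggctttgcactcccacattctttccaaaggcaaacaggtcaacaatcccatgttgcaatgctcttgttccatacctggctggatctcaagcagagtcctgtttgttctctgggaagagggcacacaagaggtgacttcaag
Saa3: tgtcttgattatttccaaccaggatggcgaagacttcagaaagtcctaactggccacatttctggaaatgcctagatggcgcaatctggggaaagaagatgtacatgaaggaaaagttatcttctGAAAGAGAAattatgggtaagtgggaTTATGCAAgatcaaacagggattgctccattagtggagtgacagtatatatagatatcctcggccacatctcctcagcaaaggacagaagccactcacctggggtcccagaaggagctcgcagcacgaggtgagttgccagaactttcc

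The Serpina3n window held no match to any of the 6 motifs, and FoxO letters were in none of the 5 windows. Serpina3g held a STAT match 33 bases before its start, Kng2 a C/EBP match 112 bases before its start, and Saa3 a C/EBP match 99 bases and an interferon response core 125 bases before its start. The window of Lcn2, not shown, held a C/EBP match 216 bases before its start. Such letters are common: of 32851 mouse promoter windows of this length, 8.30% held the STAT letters, 10.8% the C/EBP letters, 1.25% the NF-kB letters, 3.65% the FoxO letters, 8.56% the interferon response core and 13.6% the TATA letters. The windows of Serpina3g and Serpina3n could be aligned over 81 columns with 65 identical bases (80.2%). Within that stretch the STAT match of Serpina3g differs from the aligned bases of Serpina3n by C3A, counted from 1 at the first base of the match, with the Serpina3g base first. These are matches of letters and not measured sites.

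Serpina3n reached the highest level of the 7 members, in OKS+FoxO6 on day 1. In OKS+DR, Saa3 and Kng2 reached higher levels than it did. Serpina3n lies on chr12:104406729-104414329 (plus strand, GRCm38) as the last gene of the Serpina3 cluster. In OKS+FoxO6 its level was 56.2 TPM on day 0, 372 on day 1, 236 on day 3, 101 on day 5 and 53.5 on day 7, from 124, 613, 460, 205 and 96 reads. In OKS+DR the level was 3.87, 0, 0, 6.56 and 2.57 TPM on the same days, from at most 9 reads. Every OKS+FoxO6 library was above every OKS+DR library. The share of all genes that separate the arms in this way was not counted, and Serpina3n was selected with these values known.

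**Figure D1:**
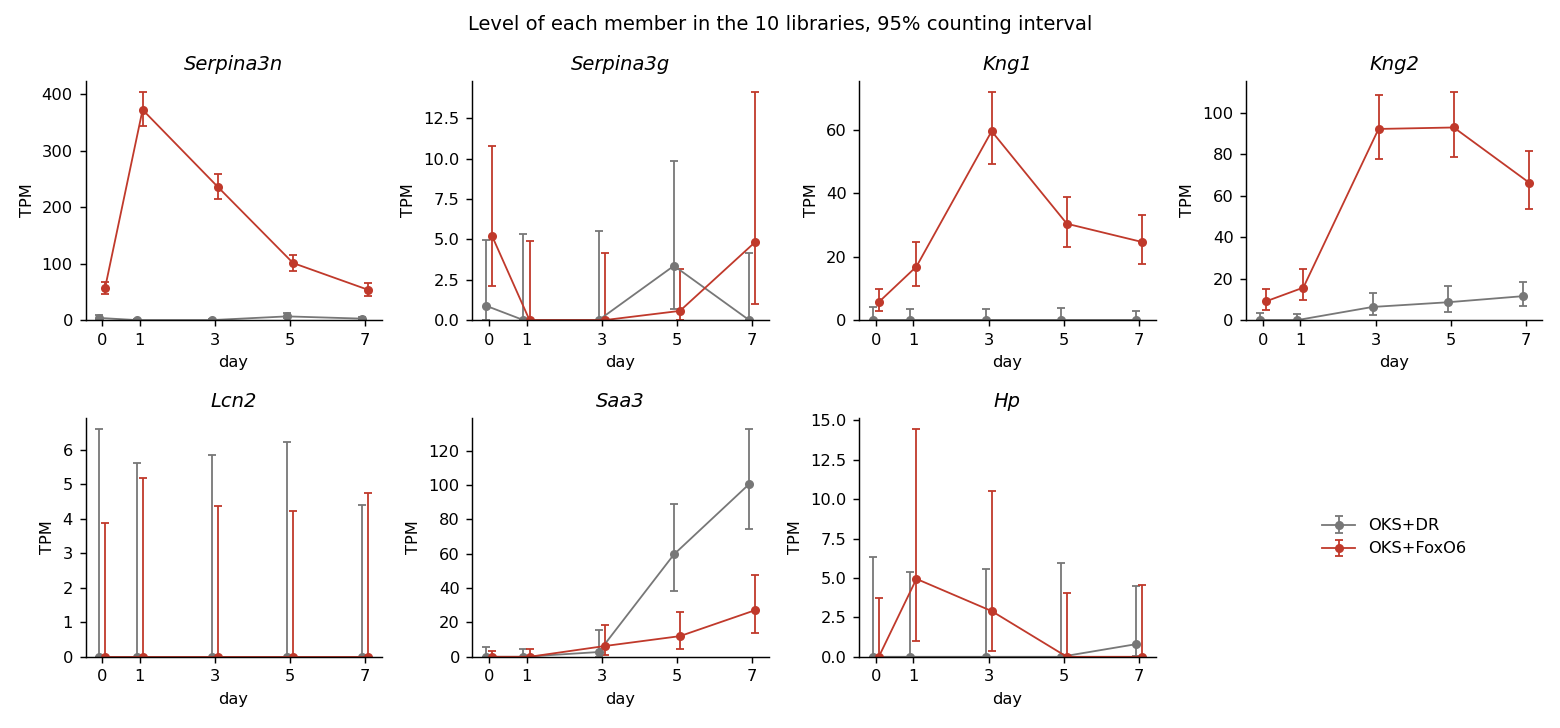
Level in TPM (vertical axis, linear from 0, a scale per panel) of the 7 members against day, with OKS+DR in grey and OKS+FoxO6 in red; each point is 1 library and bars are 95% counting intervals. Serpina3n peaks at 372 TPM on day 1, Kng1 at 59.5 on day 3 and Kng2 at 92.8 on day 5 in OKS+FoxO6, while Saa3 reaches 100.5 TPM on day 7 in OKS+DR.

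In reads per library total, Serpina3n was 13.5-fold higher in OKS+FoxO6 on day 0 (95% exact interval 5.62 to 42.2, counting error only, as for all ratios here). On days 1 and 3 the control had no read and was set to a floor of 3 reads. The ratio was then 189 on day 1 (lower 95% limit 153) and 113 on day 3 (lower limit 91.7). The ratio was 15.0 on day 5 (7.76 to 33.3) and 23.0 on day 7 (9.52 to 72.4). Within OKS+FoxO6 it was 6.70-fold higher on day 1 than on day 0 (5.52 to 8.20), and then lower by 1.61-fold to day 3 (1.43 to 1.82), by 2.33-fold to day 5 (1.97 to 2.76) and by 1.62-fold to day 7 (1.26 to 2.08). On day 1 it ranked 365th by TPM among the 15805 genes above 0. Only 3.19% of its stretches of 60 bases occur in other Serpina3 genes, so most of its reads could be placed.

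The other genes of the cluster were low. Serpina3g, on chr12:104236245-104241939 (plus strand), had 0.89, 0, 0, 3.36 and 0 TPM in OKS+DR and 5.23, 0, 0, 0.57 and 4.83 TPM in OKS+FoxO6, from at most 7 reads. The arms overlapped, and on day 0 the ratio of 7 reads to 1 was 3.80 with an interval of 0.488 to 171, so no difference was detectable at this depth. Of the other 9 genes of the cluster, 5 had no read in any library and 7 had at most 3 reads in every library. The only one with enough reads for the fit across days was Serpina3i, at 0, 2.47, 8.33, 10.9 and 6.47 TPM in OKS+DR and 5.66, 1.14, 3.08, 13.6 and 16.4 TPM in OKS+FoxO6. Its fitted log2 shift was 0.14 (SE 0.64, adjusted p = 0.919, edgeR). None of the 6 genes within 100 kb of Serpina3n averaged 1 TPM.

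The kininogens are neighbours on chromosome 16, with Kng2 on chr16:22985854-23029482 (minus strand) and Kng1 on chr16:23057865-23082078 (plus strand), 28.4 kb apart. Kng1 had no read in any OKS+DR library. In OKS+FoxO6 it had 5.67, 16.9, 59.5, 30.3 and 24.6 TPM on days 0, 1, 3, 5 and 7, from 12, 24, 112, 59 and 41 reads. The arms did not overlap, which is a description only, as for Serpina3n. In reads per library total, the control was set to the floor of 3 reads. The ratio of Kng1 was then 2.17 on day 0, 7.39 on day 1, 27.6 on day 3, 12.97 on day 5 and 16.4 on day 7. The lower 95% limits were 1.51, 5.56, 22.0, 10.2 and 12.7. The rise of Kng1 in OKS+FoxO6 from day 1 to day 3 was 3.86-fold (2.47 to 6.27), and it was then 1.97-fold lower on day 5 (1.42 to 2.75).

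Kng2 was detected in the control as well, later and lower. Its level was 0, 0, 6.33, 8.59 and 11.5 TPM in OKS+DR, from 0, 0, 7, 9 and 17 reads. In OKS+FoxO6 it was 8.99, 15.7, 92.1, 92.8 and 66.3 TPM, from 15, 20, 141, 143 and 91 reads. The arms overlapped over the whole course, since the control on day 7 stood above OKS+FoxO6 on day 0, but OKS+FoxO6 was higher on each day. With the control at the floor of 3 reads, the ratio was 2.71 on day 0 (lower 95% limit 1.95) and 6.16 on day 1 (4.56). OKS+FoxO6 was then 14.9-fold higher on day 3 (7.03 to 37.6), 10.5-fold on day 5 (5.37 to 23.4) and 6.41-fold on day 7 (3.79 to 11.5). The step from day 1 to day 3 in OKS+FoxO6 was 5.83-fold (3.64 to 9.84), while the level on day 5 differed from that on day 3 by less than counting error (ratio 0.977, 0.769 to 1.24).

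Kng1 and Kng2 are paralogs that share part of their sequence: 13.7% of the 60-base stretches of Kng1 transcripts occur in Kng2, and 15.3% of those of Kng2 in Kng1, so the split between them of the reads from shared stretches is uncertain. Summed over both, with the control at the floor, the ratio was 4.89 on day 0 (lower 95% limit 3.71) and 13.6 on day 1 (10.6). OKS+FoxO6 was then 26.7-fold higher on day 3 (12.8 to 67.0), 14.8-fold on day 5 (7.64 to 32.8) and 9.30-fold on day 7 (5.59 to 16.4). The length column, a mean over isoforms weighted by their estimated abundance, was not used to select the members. For Kng2 it was 1577 to 1635 bases wherever the gene had reads, near the isoforms of 1577 and 1591 bases and not the one of 2294. For Kng1 in OKS+FoxO6 it was 1830 to 1997 bases, near the isoforms of 1827 and 1995 bases. The pseudogene Gm6493, which overlaps Kng2, had at most 1 read.

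**Figure D2:**
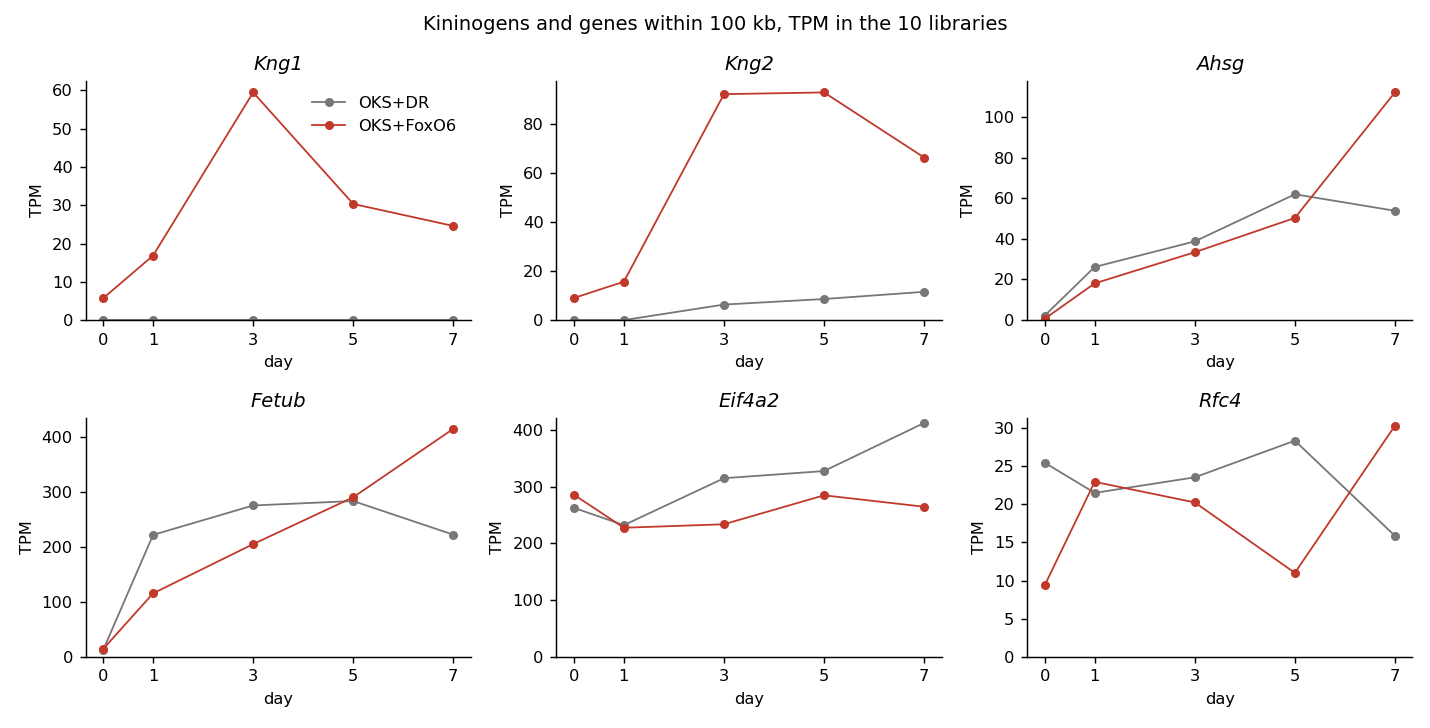
TPM (vertical axis, linear from 0, a scale per panel) against day for Kng1, Kng2 and 4 genes within 100 kb, OKS+DR in grey and OKS+FoxO6 in red, 1 library per point. Kng1 and Kng2 separate the arms on each day, while Fetub rises in both arms from 11.8 and 13.9 TPM on day 0.

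The genes around the kininogens, named by their position after their values were seen, had other patterns. Ahsg and Fetub, which encode the fetuins, also of the cystatin family, were low on day 0 in both arms. Fetub had 11.8, 222, 276, 284 and 223 TPM in OKS+DR and 13.9, 116, 205, 291 and 416 TPM in OKS+FoxO6. Ahsg had 2.19, 26.2, 38.8, 62.0 and 53.9 TPM in OKS+DR and 0.64, 18.1, 33.4, 50.3 and 112 TPM in OKS+FoxO6. Their values on days 1 and 3 were lower in OKS+FoxO6, and those on day 7 were higher. Over the 5 days the fitted log2 shift of Ahsg was 0.06 (SE 0.29, adjusted p = 0.929, edgeR), which did not pass. The translation factor Eif4a2 stood between 227 and 412 TPM in all 10 libraries.

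Saa3, on chr7:46711998-46715700 (minus strand), was the member that ran the other way. Its level was 0, 0, 2.77, 59.6 and 100.5 TPM in OKS+DR, from 0, 0, 1, 24 and 50 reads, and 0, 0, 6.26, 12.02 and 27.1 TPM in OKS+FoxO6, from 0, 0, 3, 6 and 12 reads. It appeared by day 5 in both arms and was lower with FoxO6 on the last days. In reads per library total OKS+FoxO6 was 6.07-fold lower on day 5 (2.42 to 18.1) and 3.48-fold lower on day 7 (1.83 to 7.18). No 60-base stretch of Saa3 occurs in Saa1 or Saa2, and those genes had at most 3 reads in any library.

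Lcn2, on chr2:32384633-32388252 (minus strand), had 0 reads in all 10 libraries. A floor of 3 reads corresponds to 3.16 to 5.37 TPM. The upper 95% counting limits of Lcn2 were 3.89 to 6.61 TPM, so a lower level cannot be told from absence. Hp had 0, 0, 0, 0 and 0.8 TPM in OKS+DR and 0, 4.94, 2.9, 0 and 0 TPM in OKS+FoxO6, from at most 3 reads, and no fold is given. Of the acute phase genes among the members, only Serpina3n and Saa3 could therefore be followed, and they differed between the arms in opposite directions.

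On the scale of log2(TPM + 1), where a pseudocount of 1 makes changes of low genes look smaller, the mean difference over the 5 days (OKS+FoxO6 minus OKS+DR, ± SD over days) was 5.53 ± 2.46 for Serpina3n, 4.49 ± 1.17 for Kng1, 3.35 ± 0.60 for Kng2, 0.56 ± 1.58 for Serpina3g, 0.74 ± 1.45 for Hp and -0.62 ± 1.35 for Saa3. With 1 TPM or more on average, 5 members entered the count of differences past 2-fold. Of these, 4 were higher on day 0, 3 on each of days 1, 3 and 5 and 4 on day 7, and 2 were lower on day 5 and 1 on day 7. Among all 15011 genes that reached 1 TPM on average, 10.6% were higher and 6.41% lower on day 0, 8.1% and 9.43% on day 1, 8.21% and 11.8% on day 3, 10.3% and 11.4% on day 5, and 8.3% and 16.5% on day 7. Since the members were chosen on these differences, nothing is read from their share. The member nearest outside 2-fold was Saa3 on day 3, with a difference of 0.95, and the nearest inside was Serpina3g on day 5, with -1.47, both from at most 3 reads.

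**Figure D3:**
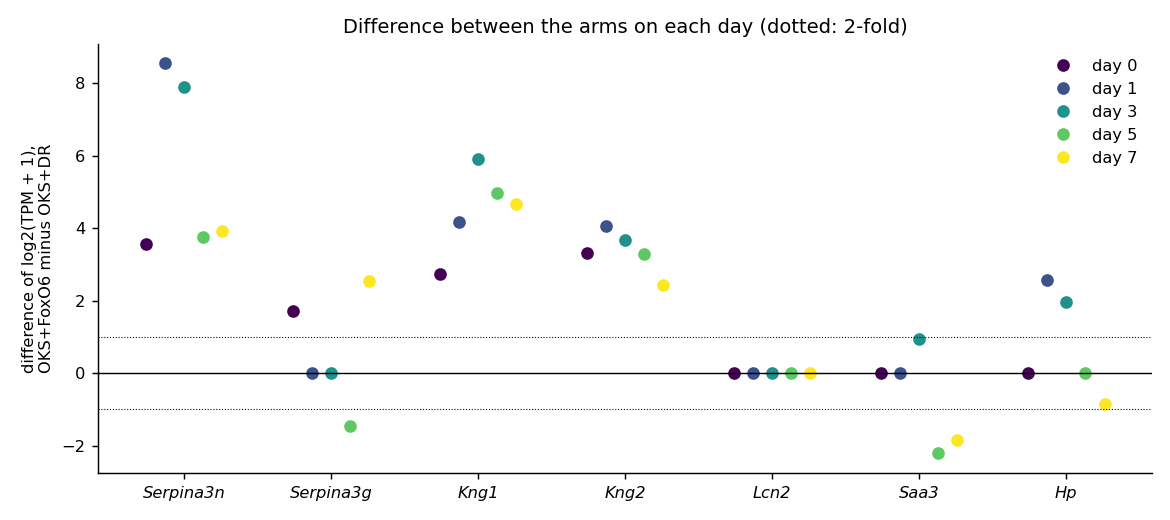
Difference of log2(TPM + 1) between the arms (OKS+FoxO6 minus OKS+DR, vertical axis) for each member, 1 point per day from day 0 (dark) to day 7 (light), with dotted lines at 2-fold. All 5 days lie above 2-fold for Serpina3n, Kng1 and Kng2, while Saa3 lies below on days 5 and 7.

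Levels were compared by Pearson's r of log2(TPM + 1) over the 10 libraries of both arms. It is a description, since all genes share the libraries and their depth. The difference between the arms, known when the members were selected, enters r, so a high r need not mean a shared time course. In OKS+FoxO6 Serpina3n was highest on day 1 and Kng1 on day 3. Serpina3n and Kng1 had r = 0.91, Kng1 and Kng2 0.83, Serpina3n and Kng2 0.73, and Saa3 0.49 with Kng2, -0.05 with Serpina3n and -0.0048 with Kng1. Among 11491 genes that averaged 5 TPM or more, the most alike to Serpina3n were Slc9a7 (0.96), Ppm1a (0.94) and Gm20634 (0.94). The most alike to Kng1 were Rnf185 (0.99), Vegfd (0.99) and Arfgap3 (0.98), and to Kng2 Rab31 (0.98), Il17rd (0.97) and Lbp (0.97). For Saa3 they were Gpr179 (0.98), Pcx (0.98) and Gdf3 (0.98).

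The other genes of these pathways were tested with edgeR's quasi-likelihood test for a shift between the arms shared by the 5 days, with Benjamini-Hochberg adjustment over all 12212 genes with enough reads. Of these, 6.63% were higher and 6.89% lower in OKS+FoxO6 at an adjusted p under 0.05, with a median log2 shift of -0.02. Of the 7 members, 4 had enough reads for this fit. Their fitted log2 shifts, given without a test, were 5.73 for Serpina3n, 3.42 for Kng2 and -1.68 for Saa3. None is given for Kng1, which had no control read. The test sets the shift against 0. Its error comes from the variation of the shift between the days of these courses (4 residual degrees of freedom per gene), moderated with that of other genes. The p-values therefore hold no spread between separate infections.

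From here on, rose and fell mean higher and lower in OKS+FoxO6 than in OKS+DR, and not a change along the days. Acute phase genes outside the members split between the arms. Of 38 such genes, 9 could be tested, of which 2 rose and 3 fell, with a median shift of -0.30. Lbp, which carries bacterial lipopolysaccharide to its receptor, had 0, 0, 6.67, 13.7 and 8.55 TPM in OKS+DR and 4.25, 20, 44.6, 112 and 99.5 TPM in OKS+FoxO6 (log2 shift 3.28, SE 0.34, adjusted p = 0.000215, edgeR, higher on 5 of 5 days). Steap4, a metalloreductase, rose by 1.85 (SE 0.25, adjusted p = 0.000958, edgeR, 5 of 5 days). The 3 that fell were complement C3 (-2.77, SE 0.67, adjusted p = 0.0230, edgeR), complement factor B, Cfb (-2.04, SE 0.49, adjusted p = 0.0227, edgeR), and the metallothionein Mt2 (-0.82, SE 0.24, adjusted p = 0.0486, edgeR), named for their count although they did not keep 1 sign on all days. These 3 calls depended on the filter and the days: with the low-count filter set by arm 1 gene fell, and without day 5 or without day 7 none did. Cfb had 0, 1.6, 3.9, 40.7 and 25.1 TPM in OKS+DR and 0, 0, 4.17, 4.58 and 9.7 TPM in OKS+FoxO6, lower on days 5 and 7 as Saa3 was.

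**Figure D4:**
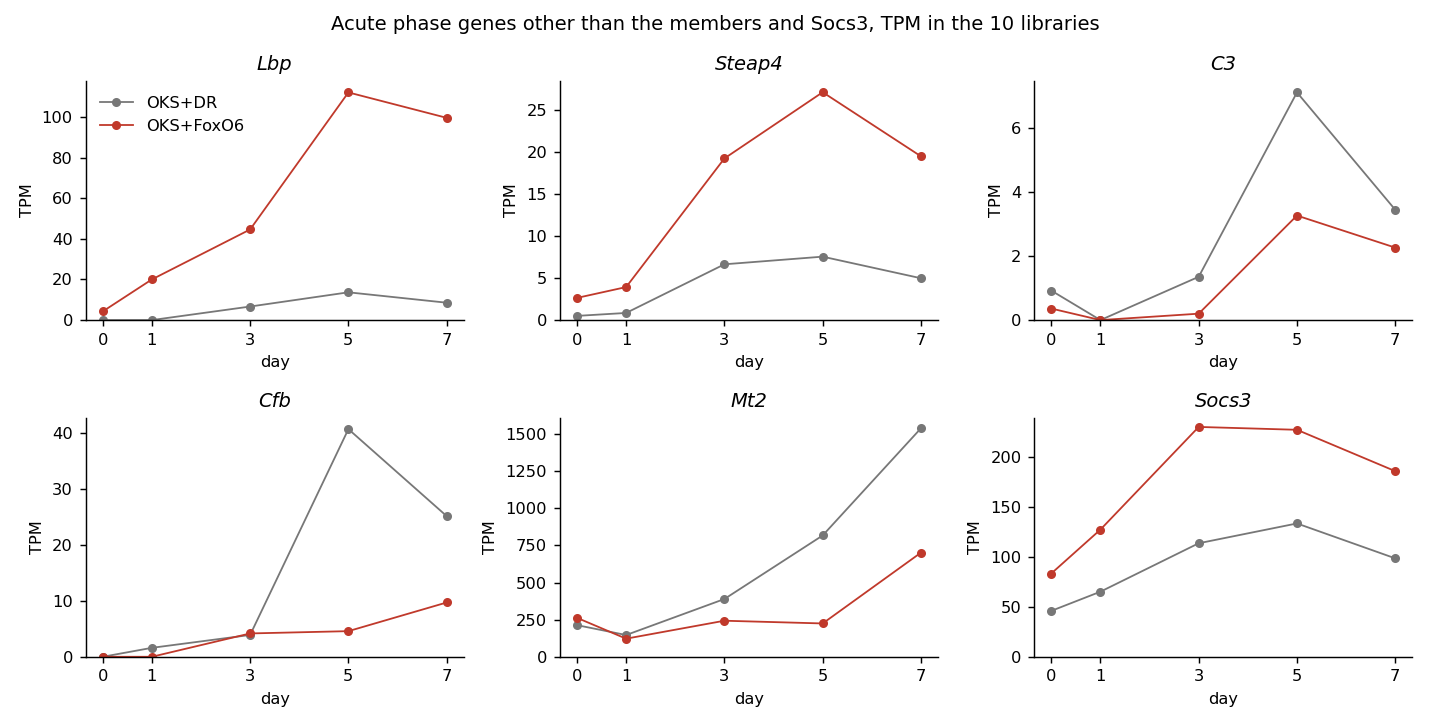
TPM (vertical axis, linear from 0, a scale per panel) against day for Lbp, Steap4, C3, Cfb, Mt2 and Socs3, OKS+DR in grey and OKS+FoxO6 in red, 1 library per point. Lbp reaches 112 TPM in OKS+FoxO6 against 13.7 in OKS+DR on day 5, while Cfb reaches 40.7 TPM in OKS+DR against 4.58.

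Of 22 tested genes of the interleukin 6 family receptors, STAT3 and its targets, 5 rose and none fell (median shift 0.33; at an adjusted p under 0.05, edgeR). Lifr, the receptor of leukaemia inhibitory factor, had 4.69, 5.29, 5.46, 16.8 and 8.57 TPM in OKS+DR and 15.0, 19.8, 26.8, 22.9 and 23.9 TPM in OKS+FoxO6 (log2 shift 1.43, SE 0.23, adjusted p = 0.00262, edgeR). Socs3, a feedback inhibitor of the pathway, had 46.0, 65.2, 114, 134 and 98.7 TPM in OKS+DR and 83.5, 127, 230.4, 227 and 186 TPM in OKS+FoxO6 (0.90, SE 0.12, adjusted p = 0.000766, edgeR). Pim3, Junb and Cebpd rose by 1.00, 0.84 and 0.80, each on 5 of 5 days. The shared receptor chain Il6st had a shift of 0.20 (SE 0.15, adjusted p = 0.438, edgeR), which did not pass.

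In the kinin system 8 of 19 other genes could be tested, of which 1 rose and 2 fell. Ece1, a peptidase that can cleave bradykinin, rose by 1.13 (SE 0.17, adjusted p = 0.00212, edgeR), and Mme, neprilysin, another such peptidase, fell by 0.74 (SE 0.18, adjusted p = 0.0216, edgeR), both on 5 of 5 days. The tissue kallikrein Klk1, named for its count, had 0, 0, 5.94, 58.0 and 81.2 TPM in OKS+DR and 0, 0, 0, 15.7 and 31.6 TPM in OKS+FoxO6 (-1.87, SE 0.51, adjusted p = 0.0423, edgeR). With the filter of 10 counts or either filter by arm Klk1 was not tested, and DESeq2 did not call it. Without day 5 neither Klk1 nor Mme was called, without day 1 Mme was not, without day 3 Klk1 was not, and without day 7 Klk1 was not tested. The receptors Bdkrb1 and Bdkrb2 and plasma kallikrein, Klkb1, stood at no more than 1.27 TPM in any library.

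Of the serpins outside the cluster, 10 could be tested and 1 rose and 1 fell. Serpinb6a rose by 0.79 (SE 0.17, adjusted p = 0.0133, edgeR). Serpine2, named for its count, fell by 0.60 (SE 0.16, adjusted p = 0.0310, edgeR, lower on 4 of 5 days). Neither call held without day 3 or without day 5, and that of Serpine2 did not hold without day 1. Among 22 tested genes of NF-kB, interleukin 1 and tumour necrosis factor signalling, 2 rose and 2 fell. The chemokine Ccl2 (-1.62, SE 0.21, adjusted p = 0.000812, edgeR) and the NF-kB inhibitor Tnfaip3 (-1.32, SE 0.26, adjusted p = 0.00838, edgeR) fell on 5 of 5 days; the call of Tnfaip3 did not hold without day 5. Those that rose were the lipopolysaccharide receptor Tlr4 (1.89, SE 0.46, adjusted p = 0.0222, edgeR, higher on 4 of 5 days and named for its count) and the tumour necrosis factor receptor Tnfrsf1a (0.46, SE 0.12, adjusted p = 0.0308, edgeR, 5 of 5 days). Neither of these held without day 1, without day 3 or without day 5, and Tlr4 was not called by DESeq2 and not tested with the filter of 10 counts or either filter by arm. Of 10 tested receptors, proteases and other partners, 3 rose and 2 fell. The lysosomal protease Ctsl, which kininogens can inhibit, had 299, 160.5, 156, 105 and 77.0 TPM in OKS+DR and 674, 582, 448, 441 and 303 TPM in OKS+FoxO6 (1.69, SE 0.16, adjusted p = 0.000154, edgeR). The haem oxygenase Hmox1 and the protease Ctsb rose by 0.86 and 0.62, and the purine receptor P2rx7 and the nuclear receptor Nr4a1 fell by 1.32 and 0.59, each on 5 of 5 days. Without day 3 or without day 5 none of this list was called lower, and DESeq2 did not call Nr4a1. Of 10 tested glucocorticoid targets, 2 rose and none fell, Errfi1 by 0.88 and Dusp1 by 0.79. Neither was called by DESeq2 or without day 1, and Dusp1 was not called without day 3, day 5 or day 7.

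Targets of interferon gamma, which is known to induce Serpina3g in macrophages, had the most calls of these lists. Of 19 tested, 15 fell and none rose (78.9% against 6.89% of all genes), with a median log2 shift of -2.17. Past 2-fold, 4 of the 19 were lower on day 0, 3 on day 1, 18 on day 3, 19 on day 5 and 17 on day 7, while 4 were higher on day 0, 2 on day 1, 1 on day 3 and 0 on days 5 and 7. Gbp4, a guanylate-binding protein, had 1.04, 3.95, 27.9, 57.8 and 56.9 TPM in OKS+DR and 0, 0.55, 1.67, 3.11 and 4.27 TPM in OKS+FoxO6 (-3.65, SE 0.31, adjusted p = 7.73e-05, edgeR). The GTPases Tgtp1, Igtp and Gbp7 fell by 3.09, 2.91 and 1.90, and Tap1, a peptide transporter, by 2.21, each lower on 5 of 5 days. DESeq2 called 8 of the tested list lower in place of 15, and without day 5 edgeR called 10.

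**Figure D5:**
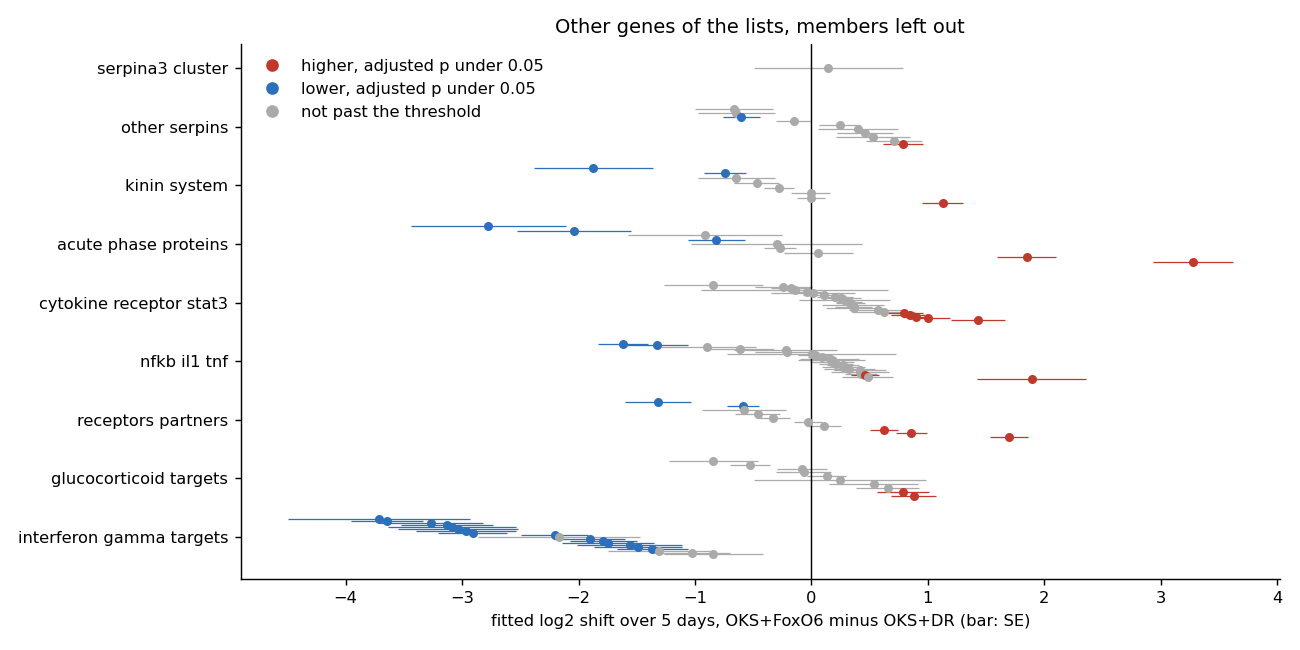
Fitted log2 shift over the 5 days (horizontal axis, OKS+FoxO6 minus OKS+DR, bars SE) for each tested gene of the 9 lists, members left out; red passed the test as higher, blue as lower and grey did not pass. The interferon gamma targets lie to the left, with 15 of 19 blue, and the 5 red genes of the STAT3 list lie between 0.80 and 1.43.

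Markers of other cell types were measured beside these values. Neutrophil markers had at most 20.2 summed TPM in OKS+DR and 11.1 in OKS+FoxO6, with S100a8, Mpo, Elane, Ngp, Camp and Retnlg at 0 in both arms. Of 10 hepatocyte markers, Afp, Apoa1, Ttr and Cyp3a11 were at 0 in both arms, and the list summed to 2.19 to 82.4 TPM in OKS+DR and 0.64 to 154 TPM in OKS+FoxO6, Ahsg included. Macrophage markers summed to 20.3 to 98.8 TPM in OKS+DR and 32.4 to 55.9 TPM in OKS+FoxO6, with Fcgr1 at 0 in the first and Tyrobp in the second. Endothelial markers summed to 23.4 to 59.8 and 34.7 to 143 TPM, adipocyte markers to 1.53 to 12.7 and 0.63 to 14.6 TPM, and epithelial markers to 87.8 to 811 and 39.0 to 221 TPM in OKS+DR and OKS+FoxO6. The part of these cells in the differences of the members was not tested.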

How the data were processed

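RNA-seq libraries of 2 arms were read at 5 days, 1 library each, and were grouped by their titles. The authors mapped the reads with RSEM and Bowtie2 to mm10 with the GENCODE M13 transcripts; versions are not given in the sources used here. They deposited expected counts, without normalization, TPM, and the lengths of each gene. The labels name a VAHTS library kit and the methods of the study a TruSeq kit. The table of the whole series holds the same expected counts for 48476 named genes.

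Members and lists were chosen with earlier results of these data known. Differences of log2(TPM + 1) used a pseudocount of 1 and, for counts past 2-fold, a mean TPM of at least 1. Ratios used rounded expected counts per library total with exact (Clopper-Pearson) 95% intervals and a floor of 3 counts per library; intervals and floors cover counting error only. Expected counts were rounded and fitted with edgeR 4.0.16 in R 4.3.3 (TMM, filterByExpr, day as a factor, arm tested, adjusted p under 0.05), and the fit was tested on simulated data. The low-count filter was run in 3 forms, and the form kept as main is the one that uses the design of the fit; the other 2, and their counts, are given as alternatives chosen after seeing the data. The SE of an edgeR shift is its absolute value divided by the square root of the F statistic of the test, an approximation. DESeq2 1.42.0 was an alternative. Python 3.11.15, numpy 2.4.6, pandas 2.3.3 and scipy 1.17.1 gave the other values. The text names the members, up to 5 genes of each list by the size of the fitted shift among those past the threshold with 1 sign on all 5 days, direct partners of the members (at most 4), the 3 genes most alike to each member, Foxo6 and cell type markers; exceptions are marked. Coordinates come from GENCODE M21 on GRCm38, the same assembly, and promoter windows from RefSeq on GRCm38.p6. Columns of no sample numbered 0.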

Additional observations from a re-analysis of the deposited data

How the results depend on the processing

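Counts of genes past the threshold depended on the model and on single days. With the main filter 810 genes were higher and 841 lower in OKS+FoxO6. Without the day term 124 and 38 were called, and DESeq2 called 546 higher and 547 lower. Leaving out each day in turn gave 370 to 837 higher and 335 to 841 lower, with 370 and 335 without day 5 and 400 and 373 without day 3. In the lists, 16 genes were higher and 25 lower. There, without the day term 2 and 0 were called, DESeq2 called 13 higher and 14 lower, and leaving out a day gave 12 to 16 higher and 11 to 26 lower. The low-count filters with the arm as the group, chosen after seeing the data, called 756 higher and 782 lower of all genes, or 761 and 783 among the genes of the series table. With no filter 1148 were higher and 1105 lower, and with at least 10 counts in 5 libraries 758 and 786.

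The 5-day mean difference of Kng1 was 7.73 with a pseudocount of 0.1 and 2.46 with 5, against 4.49, that of Kng2 was 4.72 and 2.32, against 3.35, and that of Serpina3n 7.03 and 4.15, against 5.53; where the control has no read the pseudocount sets these values. Leaving out 1 day moved these means by over 1.5 times: Saa3, at -0.62, ranged from -1.02 (without day 3) to -0.23 (without day 5), Hp, at 0.74, from 0.28 (without day 1) to 1.13 (without day 7), and Serpina3g, at 0.56, from 0.06 (without day 7) to 1.07 (without day 5). Differences past 2-fold, summed over the 5 days, numbered 6822 higher and 8342 lower, and 3819 and 4543 with a mean TPM of at least 5. Of 25 named list genes under 12 alternatives, 300 values in all, 257 kept their call, 43 lost it and none changed sign. Without the day term came 23 of the losses. These 25 are called genes with 1 sign on all 5 days. C3, Cfb, Mt2, Klk1, Tlr4 and Serpine2, which lost their calls under some alternatives as given above, are not among them.

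The main fit pairs the arms by day through its day term, so the counts without that term are those of the unpaired fit. Depth limits Lcn2, Hp and Serpina3g, which had at most 7 reads in any library.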

Other observations

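Tph1, which encodes tryptophan hydroxylase, lies within 100 kb of Saa3 and was named after its values were seen. It had 0, 0.78, 2.89, 6.54 and 2.41 TPM in OKS+DR on days 0, 1, 3, 5 and 7, and 3.96, 9.09, 30.1, 85.4 and 83.7 TPM in OKS+FoxO6. It was higher in OKS+FoxO6 on each day, while Saa3 was lower on days 5 and 7. Saal1, between them, stood at 10.4 to 25.6 TPM in all 10 libraries.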
